A study of Homo sapiens with 9 samples.

Results

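Among the 9457 H3K4me3 peaks of ordinary width in A549 cells, 1364 carried an anti-HA peak from cells with HA-tagged BAZ2B and also one from cells without the tag. These 1364 regions are described here. A region belonged to the set when its H3K4me3 peak lay on chromosomes 1 to 22 or X, was 1000 to 1999 bp wide, and shared at least 1 bp with a peak of each anti-HA list. The regions were thus chosen by the width of the H3K4me3 peak and by the presence of both anti-HA peaks, and counts built on these values are descriptions that carry no test. The 1364 regions made up 71.0% (68.9 to 73.0%) of the 1921 H3K4me3 peaks of any width that met both anti-HA lists, out of 16997 H3K4me3 peaks on these chromosomes.

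The study profiled A549 cells, a human lung adenocarcinoma line, by CUT&Tag, in which an antibody guides a transposase to its target in permeabilised cells and the released fragments are sequenced. Its 9 libraries form 3 groups of 3 replicates. The first group is cells whose endogenous BAZ2B gene carries an HA tag at its 5′ end, profiled with an anti-HA antibody (HA-BAZ2B). The second is untagged wild-type cells profiled with the same anti-HA antibody (WT), and the third is the tagged cells profiled for H3K4me3. The antibody labels of the H3K4me3 libraries are not identical (replicate 1 has a different final number from the others), and grouping went by the sample titles. H3K4me3 was profiled in the tagged cells only. The protocols also mention an siRNA transfection that no label assigns to a library, and do not say whether the tagged line is 1 clone.

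H3K4me3, histone H3 trimethylated at lysine 4, marks the nucleosomes beside active transcription start sites, where the chromatin itself is open. BAZ2B carries a bromodomain, which reads acetylated histones, and partners with ISWI chromatin remodelers, the motors that slide nucleosomes. Untagged cells hold no HA epitope, so an anti-HA peak in them is assay background at that place, and a region with both anti-HA peaks is one where the tagged signal sits on a place that also gave signal without the tag.

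Each group has 1 deposited peak list and no value per replicate. The positions and scores in a list are those of 1 library, by its peak names replicate 3 for HA-BAZ2B, replicate 2 for WT and replicate 1 for H3K4me3. Fold enrichment and −log10 q are the authors' own values for each peak, and they are not scaled between lists. Read counts are not in the lists, so depth is unknown and the peaks of a list are not replicates of a condition. The range in parentheses after a share is its 95% confidence interval by the exact binomial method of Clopper and Pearson, and it covers only the counting error over peaks. The peak names of the WT and H3K4me3 libraries carry an extra tag that those of the HA-BAZ2B library lack, and its part in the results was not tested.

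Of the ordinary-width H3K4me3 peaks, 14.4% (13.7 to 15.1%) carried both anti-HA lists, against 11.3% of H3K4me3 peaks of every width, of which 39.6% carried an HA-BAZ2B peak and 13.1% a WT peak. A further 3447 (36.4%, 35.5 to 37.4%) carried an HA-BAZ2B peak only, 94 (0.994%, 0.804 to 1.22%) a WT peak only, and 4552 (48.1%, 47.1 to 49.1%) neither. Most ordinary-width H3K4me3 peaks with a WT peak thus also had a tagged-line peak. An HA-BAZ2B peak was present at 93.6% (92.2 to 94.8%) of the 1458 regions with a WT peak and at 43.1% (42.0 to 44.2%) of the 7999 without one, with 50.9% over all ordinary-width peaks. An HA-BAZ2B peak was also more frequent at higher H3K4me3 −log10 q. Regions with and without a WT peak were not compared at like −log10 q. Read from the tagged line, 28.4% (27.1 to 29.6%) of the 4811 regions with an HA-BAZ2B peak had a WT peak too, with 15.4% over all ordinary-width peaks. The regions took up 1367 of the 2381 WT peaks on these chromosomes (57.4%, 55.4 to 59.4%) and 1377 of the 6788 HA-BAZ2B peaks (20.3%, 19.3 to 21.3%).

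The share with both lists was larger among wider H3K4me3 peaks. It was 9.22% (7.75 to 10.9%) in the step from 1000 to 1100 bp, 17.4% (15.2 to 19.8%) from 1400 to 1500 bp and 25.4% (21.5 to 29.6%) from 1800 to 1900 bp. In the last step of 100 bp it was 21.6% (17.1 to 26.7%), an interval that overlaps that of the step before. Outside the width window it was 4.92% (4.41 to 5.47%) of the 6643 narrower peaks and 25.6% (22.8 to 28.6%) of the 897 wider ones. The share with an HA-BAZ2B peak, with or without a WT peak, was 37.8% from 1000 to 1100 bp and 68.8% from 1800 to 1900 bp. Among peaks with an HA-BAZ2B peak, a WT peak was present at 24.4% and 36.9% in the same steps.

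The significance of the H3K4me3 peak went with the share more steeply than its width did. With the peaks in 10 equal bins of H3K4me3 −log10 q, the share with both lists was 4.33% (3.13 to 5.83%) in the bottom bin and 33.1% (30.1 to 36.2%) in the top one. The share with an HA-BAZ2B peak, with or without a WT peak, went from 16.7% to 81.7% between the same bins. Among peaks with an HA-BAZ2B peak, a WT peak was present at 25.9% in the bottom bin, 16.4% in bin 3 and 40.5% in the top one. Binned by H3K4me3 fold enrichment instead, the share with both lists had no such slope. It was 11.0% (9.07 to 13.2%) in the lowest bin, 18.1% (15.7 to 20.7%) in the second and 12.3% (10.2 to 14.5%) in the highest. Width and −log10 q were then crossed in 25 cells, from 5 width steps of 200 bp and 5 equal bins of −log10 q. The cells ran from 2.97% to 55.2% (44.7 to 65.4%), and the narrowest peaks of lowest −log10 q had 4.01% (2.74 to 5.64%).

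**Figure D1:**
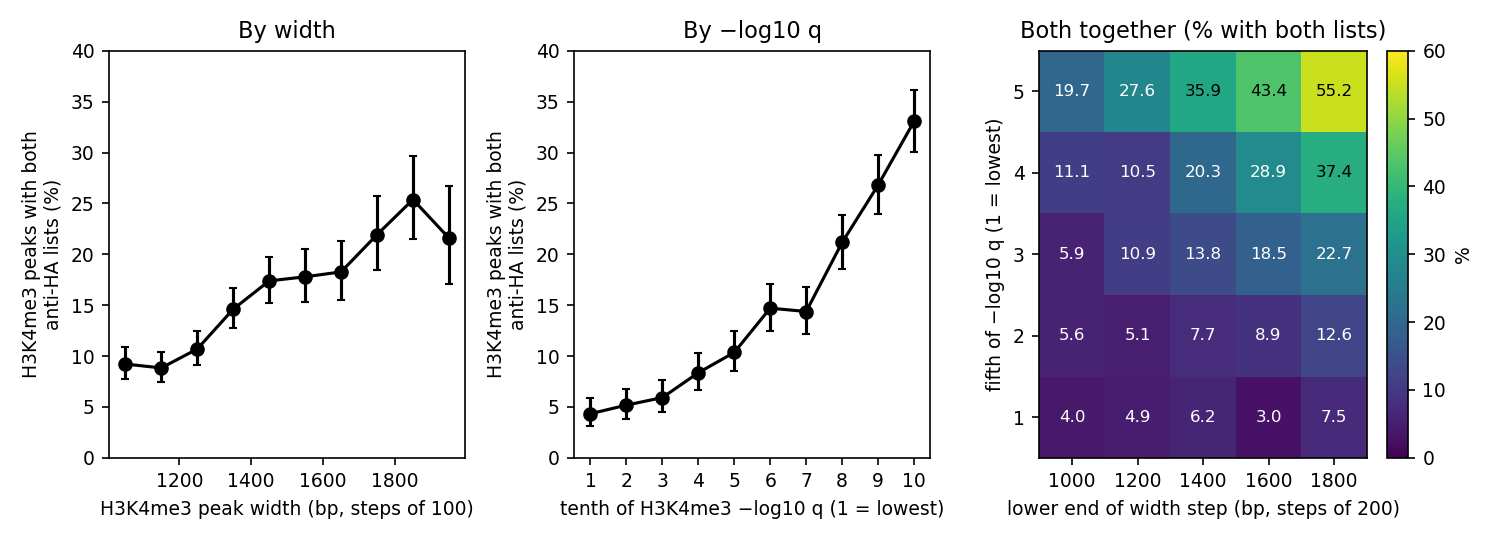
Share of ordinary-width H3K4me3 peaks with both anti-HA lists, in percent, by 100 bp step of H3K4me3 width, by 10 equal bins of H3K4me3 −log10 q, and in 25 cells of both. Points carry exact 95% binomial intervals. The share is 9.22% in the narrowest step and 25.4% from 1800 to 1900 bp, and it goes from 4.33% in the lowest bin of −log10 q to 33.1% in the highest.

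The H3K4me3 peaks of the regions were wide and of high significance, and their fold enrichment was near that of other ordinary-width H3K4me3 peaks. Their median width was 1444.5 bp (interquartile range 1267 to 1665 bp), against 1373 bp with HA-BAZ2B only, 1260.5 bp with WT only and 1283 bp with neither. Their median −log10 q was 63.8 (53.0 to 74.2), against 57.3, 53.7 and 44.7 in the same order. The interquartile range of the set thus lies above the median of the regions with neither list. Median H3K4me3 fold enrichment was 9.02 (7.68 to 10.6), against 9.33, 9.54 and 9.21, so the 4 classes lay within 1 interquartile range of each other. The difference from the HA-BAZ2B-only class in median fold, −0.314, was 0.161 when medians were compared within width steps of 100 bp, and wider H3K4me3 peaks had lower folds.

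The HA-BAZ2B peaks on the regions were near in fold enrichment to those at ordinary-width H3K4me3 peaks without a WT peak. Their fold enrichment ran from 2.48 to 15.6 with a median of 8.45 (interquartile range 7.15 to 9.90), against 8.61 in the HA-BAZ2B-only class and 8.16 in the whole list. Their median −log10 q was 33.6, against 31.1 in the HA-BAZ2B-only class, and their median width 1355.5 bp against 1280 bp. In the whole HA-BAZ2B list the peaks had a median percentile of 54.2 by fold enrichment and 64.0 by −log10 q. Of the set, 16.2% had an HA-BAZ2B peak in the top 10% of that list by −log10 q and 8.72% by fold enrichment. By fold the tagged-line peaks thus stood near the middle of their list, and by −log10 q above it.

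The WT peaks on the regions were near the middle of their own list, or slightly above it. Their median width was 679 bp (interquartile range 485.75 to 855 bp) and their median −log10 q 10.9 (7.48 to 16.2). Their fold enrichment ran from 3.15 to 15.4 with a median of 6.66. In the whole WT list the medians were 639 bp in width, 10.3 in −log10 q and 6.43 in fold. At the 94 regions with WT only, the median WT fold enrichment was 5.13, the median −log10 q 5.19 and the median width 487.5 bp. Those 94 WT peaks had a median percentile of 21.1 by fold in the WT list, against 55.9 for the WT peaks of the 1364 regions. At ordinary-width H3K4me3 peaks, the WT peaks that had no tagged-line partner were therefore mostly from the low end of the WT list.

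The strengths of the HA-BAZ2B and H3K4me3 peaks went together over the regions, and the strength of the WT peak was only weakly related to either. Over the 1342 regions with 1 peak of each list, each on no other H3K4me3 peak, the Spearman correlation of fold enrichment was 0.767 between HA-BAZ2B and H3K4me3. It was 0.143 between WT and H3K4me3 and 0.080 between HA-BAZ2B and WT. Widths gave 0.797, 0.266 and 0.183 in the same order. These are correlations across regions of 3 libraries, the HA-BAZ2B and H3K4me3 ones from the same line, and they share the local GC content and mappability of each place, which were not measured. H3K4me3 width correlated at −0.732 with H3K4me3 fold enrichment and at −0.527 with HA-BAZ2B fold enrichment, and at 0.031 with WT fold enrichment.

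**Figure D2:**
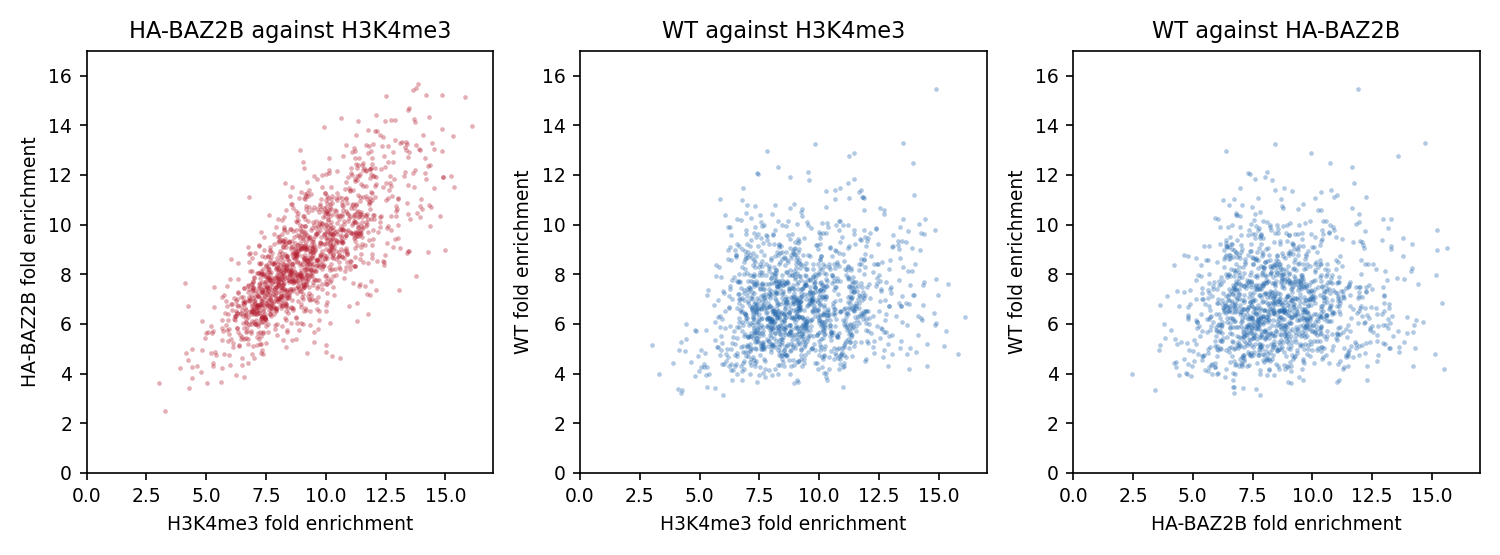
Fold enrichment of each region in pairs of lists (HA-BAZ2B against H3K4me3, WT against H3K4me3, WT against HA-BAZ2B), as the authors’ peak caller gave it, with 1 point for each of the 1364 regions, and Spearman correlations over the 1342 with 1 peak of each list. The first pair forms a slope (Spearman 0.767), and the pairs with WT form clouds (0.143 and 0.080).

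The region with the highest HA-BAZ2B fold enrichment lay at 11q12.3 (chromosome 11, 62521152 to 62522244, hg19), with 15.6 in HA-BAZ2B, 9.07 in WT and 13.9 in H3K4me3. Its 3 summits lay within 42 bp of each other. The next, at 19q13.2 (chromosome 19, 39321675 to 39322761), had 15.5 in HA-BAZ2B and only 4.17 in WT. Those at 14q32.11, 17q23.2 and 17q21.33 had 15.4, 15.2 and 15.2 in HA-BAZ2B and 6.82, 8.96 and 9.79 in WT. All 5 H3K4me3 peaks were between 1015 and 1093 bp wide, at the narrow end of the window.

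The highest WT fold enrichment, 15.4, lay at 5q13.2 (chromosome 5, 70585144 to 70586255), where HA-BAZ2B had 11.9 and the WT peak spanned 403 bp. The next was at 2p25.3 (chromosome 2, 739943 to 741082), with 13.3 in WT and 14.7 in HA-BAZ2B. That region had the highest −log10 q of the set in H3K4me3, 229, and in HA-BAZ2B, 104, and it stood first by the sum of its ranks in both anti-HA lists. At 17q12 the WT fold was 13.2 and the HA-BAZ2B fold 8.43, and the 2 summits were 510 bp apart. At 6p25.1 they were 12.9 and 6.39, and at 6p22.1 12.9 and 9.96. The regions that led by WT fold thus spanned a wide range of HA-BAZ2B folds.

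By the sum of both ranks, the region after 2p25.3 lay at 16p11.2 (chromosome 16, 32686197 to 32687526), where HA-BAZ2B had 13.6 and WT 12.8. Those at 17p13.2, 17q21.33 and 1q21.3 came next. At the other end stood 19q13.33 (chromosome 19, 49140206 to 49141434), with 3.43 in HA-BAZ2B and 3.33 in WT. There the WT peak, 964 bp wide, was broader than the HA-BAZ2B peak of 330 bp. The other low regions, at 2p23.2, 16p11.2, 17q21.31 and 16p13.3, had HA-BAZ2B folds of 2.48 to 4.93 and WT folds of 3.89 to 3.98. The H3K4me3 folds of these 5 lay between 3.29 and 5.39, below the lower quartile of the set.

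The highest H3K4me3 fold enrichment, 16.1, was at 12q13.12 (chromosome 12, 49463027 to 49464149), with 13.97 in HA-BAZ2B and 6.26 in WT. It was followed by 2 regions at 19p13.2, with 15.8 and 15.4, and by 9p21.3 and 2p13.3, with 15.3 and 15.2. Across these 5 the HA-BAZ2B fold ran from 11.5 to 15.1, above the upper quartile of the set, and the WT fold from 4.80 to 7.59, below its upper quartile.

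By WT −log10 q, a choice made after the values were seen, the first region was at 1p11.2 (chromosome 1, 121484269 to 121485447) beside the centromere, with 175 in WT and 22.9 in HA-BAZ2B. The second was at 5p15.33 (chromosome 5, 10023 to 11789) at the end of the short arm, with 131 in WT and 8.36 in HA-BAZ2B. It also had the widest WT peak of the set, 1811 bp, which covered the whole H3K4me3 peak. The third was at 19q13.2 (chromosome 19, 42772235 to 42773533), with 63.5 in WT and 53.3 in HA-BAZ2B. The upper quartile of WT −log10 q over the set was 16.2, far below the WT values of these regions. Centromeres and chromosome ends are known for repeated DNA, where reads are hard to place. The part of such DNA in these values was not tested.

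The WT peak was in most regions smaller than the HA-BAZ2B peak, and at 863 of 1364 it lay wholly inside it. Exactly 1 peak of each list was present at 1348 of 1364 regions (98.8%, 98.1 to 99.3%), and the 2 anti-HA peaks, taken as the one of highest fold in each list, overlapped each other at 1362. The HA-BAZ2B peak had a median of 0.943 of the H3K4me3 width and covered a median of 91.1% of it. The WT peak had a median of 0.471 of the width and covered 46.5%. Those 863 are 63.3% (60.6 to 65.8%) of the regions, and the WT peak lay wholly inside the H3K4me3 peak at 1214 (89.0%, 87.2 to 90.6%). The widths of each list are those of 1 library of unknown depth, and the part of depth in these differences was not tested.

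The reverse arrangements were rarer. The HA-BAZ2B peak lay inside the WT peak at 33 regions (2.42%, 1.67 to 3.38%), and the WT peak was the wider of the 2 at 100 (7.33%, 6.00 to 8.85%). The HA-BAZ2B peak was wider than the H3K4me3 peak at 427 (31.3%, 28.8 to 33.8%), close to the 30.2% of the HA-BAZ2B-only class. All 3 peaks were nested, WT in HA-BAZ2B in H3K4me3, at 273 regions (20.0%, 17.9 to 22.2%). At 288 (21.1%, 19.0 to 23.4%) the WT peak lay wholly to 1 side of the H3K4me3 midpoint.

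Each anti-HA summit, the point of highest signal, was more often near the H3K4me3 summit than near the other anti-HA summit. The median distance was 85 bp from HA-BAZ2B to H3K4me3, 85 bp from WT to H3K4me3 and 231.5 bp from HA-BAZ2B to WT. Under 100 bp lay 53.2% (50.5 to 55.8%) of the HA-BAZ2B to H3K4me3 distances, 53.8% (51.1 to 56.5%) of those from WT to H3K4me3, and 33.9% (31.4 to 36.5%) of those between the anti-HA summits. At least 300 bp lay 27.5%, 25% and 44.8% in the same order. The H3K4me3 summit stood between the anti-HA summits at 738 regions (54.1%, 51.4 to 56.8%), and all 3 summits fell within 100 bp at 366 (26.8%, 24.5 to 29.3%).

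The distances had a second, lower rise. The step of 50 bp that starts at 250 bp held 2.64% of the HA-BAZ2B to H3K4me3 distances, the one at 350 bp 6.30% and the one at 600 bp 0.733%. Between the anti-HA summits the steps that start at 250 and 450 bp held 3.67% and 6.96%. The second rise stayed low. The step from 100 to 150 bp held 8.50% of the HA-BAZ2B to H3K4me3 distances and 8.87% of those between the anti-HA summits. From WT to H3K4me3 the rise was slight, with 3.30% in the step that starts at 250 bp and 4.47% in the one at 300 bp.

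The 3 summits also differed in which side of the H3K4me3 midpoint they took. H3K4me3 and HA-BAZ2B summits were on the same side at 65.8% (63.3 to 68.4%) of regions, close to the 66.0% of the HA-BAZ2B-only class. H3K4me3 and WT summits shared a side at 71.2% (68.7 to 73.6%). HA-BAZ2B and WT summits shared a side at 50.9% (48.2 to 53.6%), an interval that holds an even split.

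**Figure D3:**
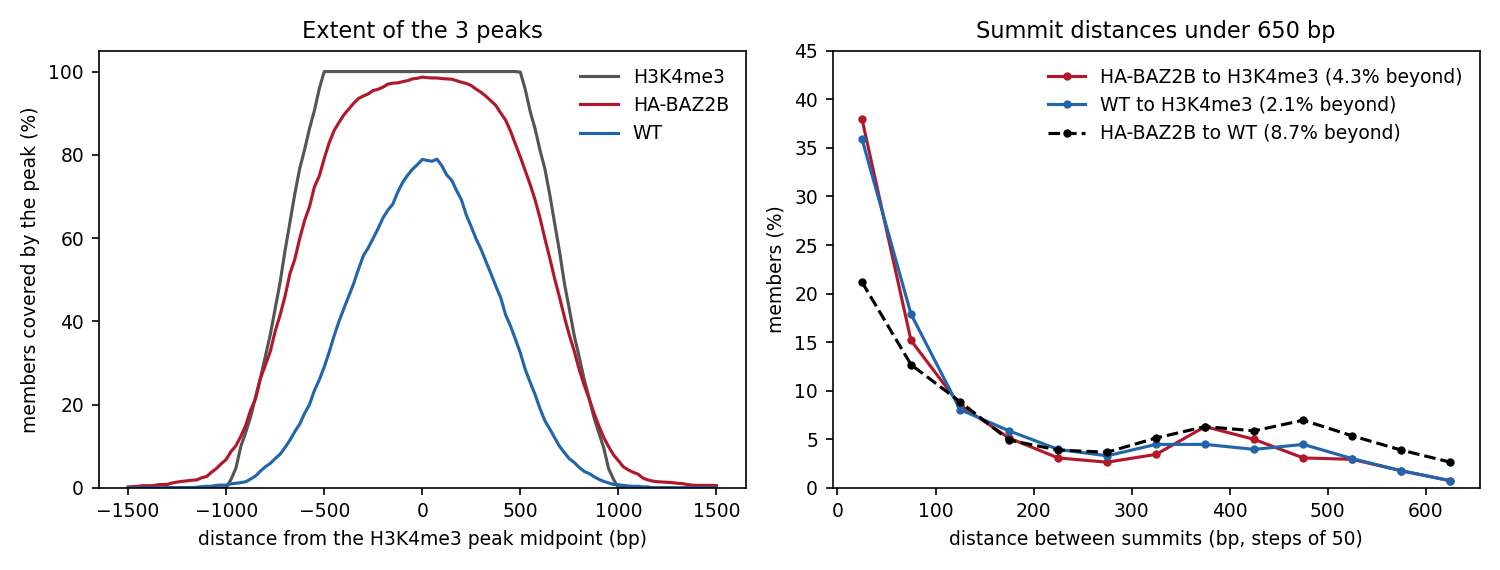
Percent of the 1364 regions whose H3K4me3, HA-BAZ2B or WT peak covers each position, by distance in bp from the H3K4me3 midpoint, and percent of regions by 50 bp step of summit distance for each pair of lists. The WT profile is the narrowest and lowest. Each pair of summits shows its largest share under 50 bp and a lower rise beyond 300 bp, which is slight from WT to H3K4me3.

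As the H3K4me3 peak widened, the HA-BAZ2B peak widened with it and the WT peak less so. From the narrowest to the widest step of 100 bp, the median HA-BAZ2B width went from 902.5 to 1934 bp, or from 0.862 to 0.989 of the H3K4me3 width. The median WT width went from 580 to 780 bp, and its ratio from 0.564 to 0.404. The median distance between the anti-HA summits went from 106 to 468 bp, though not upward in every step. Median H3K4me3 fold enrichment went from 12.2 to 7.04 and HA-BAZ2B from 10.4 to 6.75, while WT was 6.43 in the narrowest and 6.78 in the widest step.

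**Figure D4:**
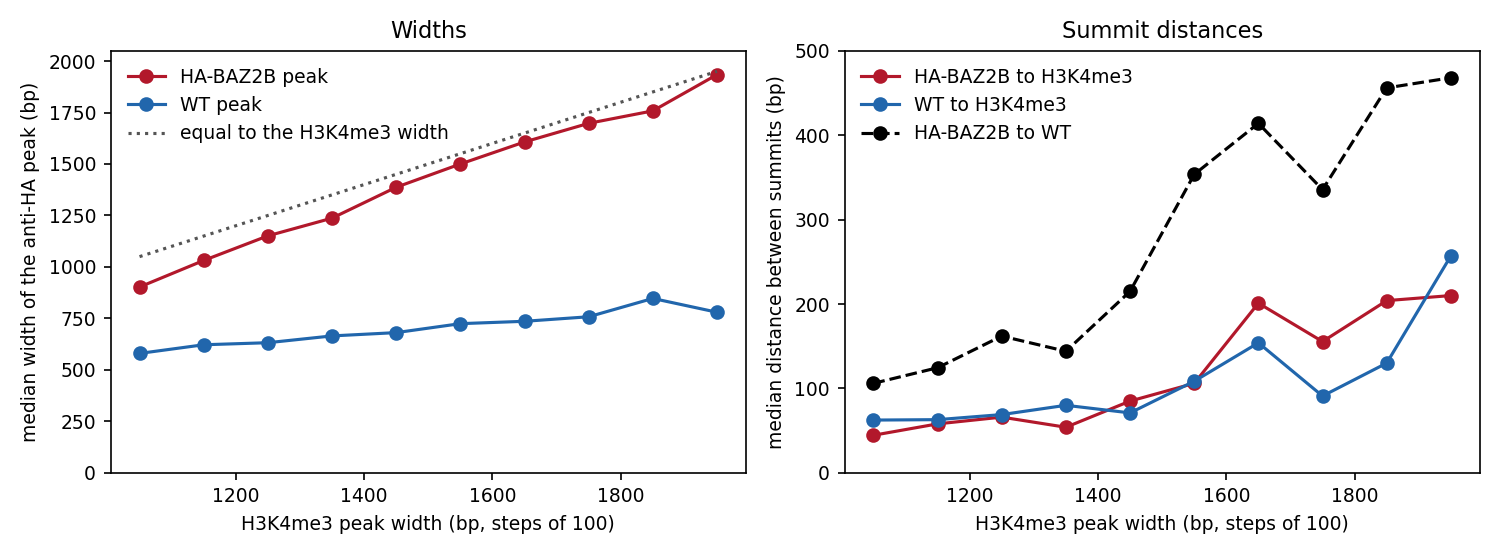
Median widths in bp of the HA-BAZ2B and WT peaks, and median summit distances in bp, by 100 bp step of H3K4me3 width over the 1364 regions, with a dotted line at equal width. The HA-BAZ2B width follows the H3K4me3 width from 902.5 to 1934 bp, the WT width goes from 580 to 780 bp, and the distance between the anti-HA summits goes from 106 to 468 bp.

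The 611 regions whose anti-HA summits were at least 300 bp apart had broader and flatter H3K4me3 peaks than the 462 with summits under 100 bp apart. Their median H3K4me3 width was 1548 bp against 1376.5 bp, and their median H3K4me3 fold 8.28 against 9.79. Median HA-BAZ2B fold was 7.96 against 9.03. Median WT fold, 6.65 against 6.82, differed by far less than the spread of either group.

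At 2 regions the highest-fold peaks of the anti-HA lists did not meet, and these were named after their values were seen. At 17q21.2 (chromosome 17, 40074046 to 40075854) the HA-BAZ2B peak ended at 40075352 and the WT peak began at 40075422, with summits 971 bp apart on either side of the H3K4me3 summit. At 6p25.1 (chromosome 6, 4775704 to 4777565) the WT peak and the stronger of 2 HA-BAZ2B peaks lay at opposite ends, and the weaker HA-BAZ2B peak lay within the WT peak. A pair of HA-BAZ2B peaks was found at 13 regions, among them 14q21.3 and 18p11.21, and a pair of WT peaks at 3, at 21q22.3, 4p14 and 5q35.3. The narrowest WT peaks were 299 bp wide, a width shared by 23 regions, of which 1p36.32, 10p11.1 and 10q22.2 come first by chromosome name.

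The anti-HA folds nearest the edges of the width window had overlapping ranges inside and outside it. The 5 regions nearest its lower edge were 1000 to 1003 bp wide, with HA-BAZ2B folds of 4.81 to 15.1 and WT folds of 4.79 to 9.32. The nearest 5 narrower peaks with both lists, 997 to 999 bp, had 3.94 to 10.7 and 3.68 to 7.03. At the upper edge the regions of 1994 to 1999 bp had 4.75 to 7.46 and 3.98 to 8.08, and the peaks of 2006 to 2011 bp just outside had 5.20 to 7.27 and 5.07 to 10.3. With 5 peaks on each side of an edge, these ranges cannot show whether the values change there.

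The regions were not spread over the genome in the same share of ordinary-width H3K4me3 peaks. The share with both lists was highest on chromosome 14, at 22.7% (18.2 to 27.8%, 70 of 308), on 19, at 21.7% (18.5 to 25.2%, 130 of 599), and on 17, at 20.1% (16.9 to 23.6%, 117 of 581). It was lowest on chromosome 4, at 6.25% (3.96 to 9.31%, 22 of 352), on X, at 7.38% (4.79 to 10.8%, 24 of 325), and on 6, at 8.71% (6.26 to 11.7%, 39 of 448). The intervals of the first 3 do not meet those of the last 3. Among regions with an HA-BAZ2B peak, 39.2% (33.9 to 44.6%) had a WT peak on chromosome 19 and 16.8% (10.8 to 24.3%) on chromosome 4.

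Part of this order went with how wide and significant the H3K4me3 peaks of a chromosome were. From the genome-wide shares in the 25 cells of width and −log10 q, chromosome 17 would hold 114 regions against the 117 found, and chromosome 6 would hold 41.0 against 39. Chromosome 19 would hold 89.8 against 130 and chromosome 14 50.4 against 70. Chromosome 4 would hold 35.6 against 22 and chromosome 7 82.6 against 60. For these 4 of 23 chromosomes the share from width and −log10 q lay outside the observed interval. The WT list also kept unequal parts of its source library, at most 36.2% of the WT peaks on chromosome 19 and 31.3% on 14 against 19.1% on 4 and 17.2% on 6, by the peak numbers. On chromosome 17, whose count was near that from width and −log10 q, it was at most 35.9%, and on chromosome 7 at most 23.8%. The HA-BAZ2B list kept unequal parts too, at most 46.0% on chromosome 19, 51.6% on 14 and 54.6% on 17. On chromosomes 4, 6 and 7 it kept at most 30.8%, 38.1% and 44.8%. The part of these kept shares in the result was not tested.

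**Figure D5:**
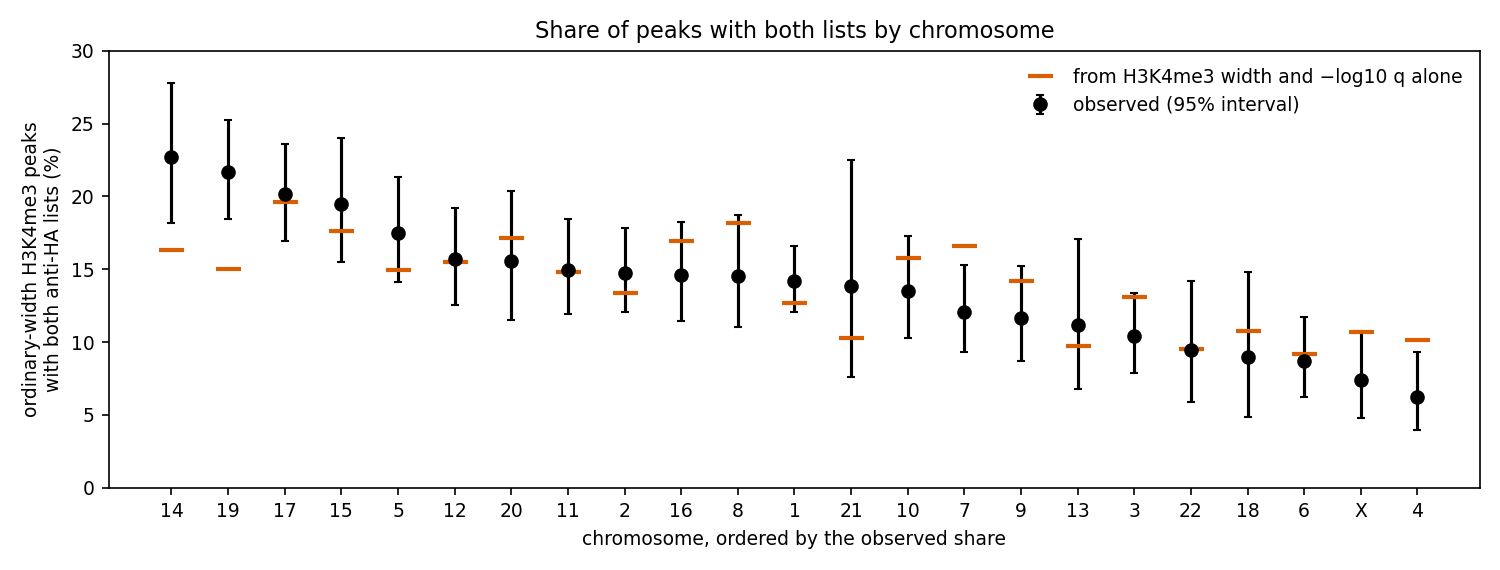
Share of ordinary-width H3K4me3 peaks with both anti-HA lists on each chromosome, in percent, with exact 95% binomial intervals, and the share that width and −log10 q of the same peaks give. Chromosomes 14 and 19 lie above that share, and chromosomes 4 and 7 below it.

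Chromosome 19 differed between its arms. On 19q, 96 of 325 ordinary-width peaks were in the set (29.5%, 24.6 to 34.8%), against 34 of 274 (12.4%, 8.75 to 16.9%) on 19p, where 63.3 and 26.5 follow from width and −log10 q. Low arms were 16q, with 19 of 191 (9.95%, 6.10 to 15.1%), 4q, with 14 of 244 (5.74%, 3.17 to 9.44%), and Xq, with 10 of 183 (5.46%, 2.65 to 9.82%). In 7 of 40 arms with at least 50 peaks the share from width and −log10 q lay outside the interval, with more regions than that share on 14q, 19q and 5q and fewer on 16q, 4q, 7q and Xq.

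The set was dense in a few bands. At 1q23.3, a band known for a large cluster of transfer RNA genes, 12 of 25 ordinary-width peaks carried both lists (48%, 27.8 to 68.7%), against 3.14 from width and −log10 q. At 14q11.2 there were 18 of 39 (46.2%, 30.1 to 62.8%) against 6.75, at 19q13.33 22 of 53 (41.5%, 28.1 to 55.9%) against 9.87, and at 19q13.2 25 of 63 (39.7%, 27.6 to 52.8%) against 14.2. At 19q13.11 there were 9 of 22 (40.9%, 20.7 to 63.6%) against 6.58, a share of 29.9% that lies within the interval. At 2p13.3 there were 9 of 23 (39.1%, 19.7 to 61.5%) against 3.87, and at 1q21.2 11 of 31 (35.5%, 19.2 to 54.6%) against 4.26. At 1p34.1 there were 8 of 25 (32%, 14.9 to 53.5%) against 2.73, and at 19q13.32 13 of 42 (31.0%, 17.6 to 47.1%) against 6.25. At 6p22.1, known for clusters of histone and transfer RNA genes, there were 9 of 39 (23.1%, 11.1 to 39.3%) against 2.25. The share at 6p22.1 was the lowest of these, but the number found was 4.01 times that from width and −log10 q. Overlap of the regions with any of those genes was not tested. In contrast, 16q22.1 held 1 of 55 (1.82%, 0.0460 to 9.72%) against 8.74.

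Of 130 bands with at least 20 ordinary-width peaks, 9 had a share above and 4 a share below what width and −log10 q give, beyond the interval. The intervals were not adjusted for the number of bands compared. The regions touched 487 of the 774 bands with an ordinary-width peak.

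Counted in windows of 1 Mb, the regions lay in 828 of 2153 windows with an ordinary-width peak, alone in 526 of them. Only 25 windows held 5 or more. The densest was 1q23.3 (chromosome 1, 161000001 to 162000000), with 11 of 20 ordinary-width peaks in the set against 2.45 from width and −log10 q. Next were 19q13.33 (chromosome 19, 49000001 to 50000000), with 10 of 21 against 3.31, and 17q25.1 (chromosome 17, 73000001 to 74000000), with 8 of 26 against 6.06. At 6p22.1 (chromosome 6, 27000001 to 28000000) there were 8 of 25 against 1.52, and at 14q11.2 (chromosome 14, 21000001 to 22000000) 7 of 12 against 1.92. The windows at 16p11.2 (chromosome 16, 30000001 to 31000000) and 19q13.31 to 19q13.32 (chromosome 19, 45000001 to 46000000) also held 7, of 30 and of 18, against 5.54 and 2.67. The windows at 1q23.3, 19q13.33, 14q11.2 and 19q13.31 to 19q13.32 held fewer regions with HA-BAZ2B only (3, 5, 4 and 2) than with both lists.

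A WT peak on the neighbouring H3K4me3 peak was somewhat more frequent at the regions than in the 2 larger classes, though most neighbours had none. The nearest other H3K4me3 peak carried a WT peak at 19.0% (16.9 to 21.2%) of the regions, against 13.5% (12.4 to 14.7%) in the HA-BAZ2B-only class 11.3% (10.4 to 12.2%) in the class with neither and 19.1% (11.8 to 28.6%) in the 94 with WT only. The background for H3K4me3 peaks of every width was 13.1%. The gap to that neighbour had a median of 30150.5 bp, against 32872 and 34988 bp in the HA-BAZ2B-only class and the class with neither. Another H3K4me3 peak within 10 kb was present at 21.3% (19.1 to 23.5%), 18.0% (16.7 to 19.3%) and 18.9% (17.8 to 20.1%) in the same order.

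By staining, 59.5% (56.9 to 62.1%) of the regions lay in Giemsa-negative bands, the gene-rich light bands, against 62.6% and 61.9% in those 2 classes and 42.4% of chromosome length. Within 5 Mb of a chromosome end lay 11.4% of the regions, against 13.3% and 14.1%. In staining and distance to the ends the set was thus close to other ordinary-width H3K4me3 peaks.

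An HA-BAZ2B peak without a listed WT peak is not the same as no WT signal. Only 70 of the 3447 HA-BAZ2B-only regions (2.03%, 1.59 to 2.56%) lay where the numbering of the WT source library leaves no room for a WT peak removed by the authors' filter. In the class with neither list the same held for 203 of 4552 regions (4.46%, 3.88 to 5.10%). Unlisted WT peak numbers were thus possible at most places of both classes, and they do not show a WT peak at a given region. Against the 70 HA-BAZ2B-only regions, the set's median H3K4me3 −log10 q was higher by 9.24, compared with 6.51 against the whole HA-BAZ2B-only class.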

How the data were processed

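The 3 groups of A549 CUT&Tag libraries were compared through 1 deposited peak list each, for HA-BAZ2B, WT and H3K4me3. Per the submitters' processing notes, Bowtie2 2.4.5, Picard, SAMtools 1.15.1, bedtools and MACS2 2.1.4 were used with the builds hg19 and dm6. Peaks present in at least 2 replicates were kept by the authors and taken from the largest file, per the labels. MACS2 settings, control libraries and spike-in scaling are details not given in the sources used here. Deposited fold enrichment is a ratio computed by the authors' peak caller over its own background estimate. The deposited −log10 q values are the authors' significance of each peak, at least 1.36 in these lists, and the deposited integer score was not used. Positions and summits are in bp and come from the authors' lists. Printed starts count from 1, and both the first and the last base belong to the peak.

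Peaks on chromosomes 1 to 22 and X were joined by an overlap of at least 1 bp in Python 3.11.15 (numpy 2.4.6, pandas 2.3.3, scipy 1.17.1, matplotlib 3.10.9), and bedtools 2.31.1 gave the same 1364 members. Where a list had 2 peaks on a region, the one of higher fold enrichment gave its values. The overlap, geometry and count steps were tested on simulated data. Bands of hg19 came from circlize 0.4.16 in R 4.3.3. Numbers of regions from width and −log10 q are sums of the genome-wide shares in 25 cells, a comparison added after the data were seen. The members, classes and alternatives were chosen with earlier results of these data known. Regions named are those at the extremes of fold enrichment, summed rank, width and WT width, those with several peaks of a list, and the 5 densest windows, with windows tied for the last place given too. No test across replicates could be made with 1 list per group. Gene names and sequences were not used here, since the reference tables are of another build.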

Additional observations from a re-analysis of the deposited data

Results flagged for a closer look

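Outside chromosomes 1 to 22 and X, 22 of 231 ordinary-width H3K4me3 peaks (9.52%, exact 95% binomial interval 6.07 to 14.1%) carried both anti-HA lists. These peaks enter no comparison above and are listed because signal was present in data left out of them. Of the 193 peaks on alternative haplotypes of chromosome 6, 12 carried both (6.22%, 3.25 to 10.6%), and of the 29 on other contigs 10 did (34.5%, 17.9 to 54.3%). On chromosome Y it was 0 of 9. Alternative haplotypes copy sequence of chromosome 6, so their peaks are not independent of those on it.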

How the results depend on the processing

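Of 45 alternatives over 23 results, 29 kept the value, 14 moved and 2 changed sign, where a kept value lies within the interval of the reported one or, for the number of members, within 1.5 times of it. Requiring each list to cover 50% of the H3K4me3 peak left 568 members (6.01%), with HA-BAZ2B shares of 91.8% with and 46.3% without a WT peak. Limiting the HA-BAZ2B list to the length of the WT list left 664 (7.02%). With −log10 q of at least 5 in all lists, the share of members was 13.1% and that of HA-BAZ2B peaks at WT regions 95.1%. The difference of −0.314 in median H3K4me3 fold from the HA-BAZ2B-only class turned to 0.161 within width steps, and the −log10 q difference was 9.24 against HA-BAZ2B-only regions with no unlisted WT peak number. Between peak centres, the distances to H3K4me3 were 75 bp for HA-BAZ2B and 168 bp for WT. By −log10 q, the median percentiles were 64.0 in the HA-BAZ2B list and 53.6 in the WT list, and the Spearman correlations were 0.584 for HA-BAZ2B with H3K4me3 and −0.047 for HA-BAZ2B with WT. The shorter lists lower the counts by construction, and the cause of the other changes was not tested.

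No paired analysis was possible because each group has 1 list with no value per replicate. Leaving out a replicate was not run for the same reason. Depth is unknown, and signal below the authors’ threshold or filter was not measurable from the lists.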
